A study of Mus musculus with 24 samples.

Results

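Markers of hepatic stellate cells and of the myofibroblasts they can become, 10 genes in all, were followed across 24 RNA-seq libraries of mouse liver. Lrat, Reln, Hhip and Ngfr mark quiescent stellate cells, and Des, Acta2, Tagln, Vim, Lox and Loxl2 mark activated cells. They were picked by symbol, with earlier results of these data known. They make up 10 of the 15851 genes that passed a filter on low counts, out of 33019 gene identifiers counted. All 10 members passed that filter. The livers came from C57BL/6J mice aged 2 months in 6 genotypes of 4 libraries each. The p62 TKO livers carried hepatic deletions of Atg5, TSC1 and p62, and the Nrf2 TKO livers hepatic deletions of Atg5, TSC1 and Nrf2. The DKO livers lacked Atg5 and TSC1, which both TKO groups lacked too, the Atg5 KO and TSC1 KO livers lacked 1 gene each, and the last group was WT. Atg5 is needed to form autophagosomes, TSC1 restrains the growth kinase mTORC1, p62 carries cargo to autophagosomes and binds KEAP1, and Nrf2 is the transcription factor that KEAP1 holds down. The labels call the deletions hepatic and name no Cre line, sex or litter. Since no label ties a library to its own animal, p-values speak only of the variation among these libraries.

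Stellate cells lie between the hepatocytes and the sinusoidal endothelium, where they store vitamin A as retinyl esters. On injury they can lose this store, become contractile and make scar matrix, and they are held to be the main source of myofibroblasts in many models of liver fibrosis. Several of the markers are shared with other cells: Acta2 and Tagln with vascular smooth muscle, Vim with macrophages and endothelium, and Des with both states of the rodent stellate cell. In RNA from whole liver, fewer cells of a type and less RNA per cell cannot be told apart.

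Levels are given as CPM, a gene's count per unit of its library's total, scaled between libraries by the trimmed mean of M-values (TMM), and differences as log2 fold changes ± SE with Benjamini-Hochberg adjusted p from edgeR's quasi-likelihood test over all 15851 genes. Library totals were 10494080 to 13057467 counts. TMM factors were 0.717 to 0.813 in WT and 1.49 to 1.56 in DKO livers, so the choice of scaling bears on every comparison with DKO. Under total counts alone the median gene differed by 1.07 (log2) between DKO and WT, against 0.080 under TMM, and changes below are relative to the TMM scale. Nfe2l2, the gene of Nrf2, had 8.69 to 17.7 CPM in Nrf2 TKO livers, against 92.8 to 162 CPM in DKO livers. Sqstm1, the gene of p62, had 249 to 774 CPM in p62 TKO livers, against 729 to 1063 CPM in DKO livers, and the highest p62 TKO library (replicate 4) lay within the DKO range. Atg5 was not lower in the Atg5 KO livers (38.6 to 46.7 CPM, against 22.5 to 31.4 CPM in WT), and Tsc1 had 29.1 to 33.8 CPM in TSC1 KO livers, against 33.1 to 36.7 CPM in WT. The labels do not say which exons were deleted and gene counts span all of them, so these 2 levels check nothing, and genotypes are named as labelled. Albumin and the other 15 hepatocyte genes were detected in every genotype. Over the members, 3 libraries stood apart. The replicate 2 library of p62 TKO was the lowest of its group for 8 of 10 members, that of Nrf2 TKO the highest for 9 of 10, and that of Atg5 KO had by far the most Acta2. Results that rest on them are given with and without them.

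DKO livers had less of all 4 quiescent markers and more of 4 of the 6 activated markers than WT livers. These 8 of 10 members passed the test where 69.3% of all genes did, and of all genes 37.1% were higher and 32.3% lower. The share called was thus near the background of a comparison in which most genes moved. The 4 DKO and 4 WT libraries did not overlap for 8 members, as for 62.2% of all genes. The log2 fold changes had a median of -1.35 over the quiescent and 2.72 over the activated markers, against 0.080 over all genes. With total counts the split was 6 higher and 1 lower in place of 4 and 4.

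Lrat, the enzyme that esterifies retinol for storage, had 5.88, 5.90, 4.27 and 5.06 CPM in the 4 DKO libraries, against 6.81, 9.12, 12.6 and 12.8 CPM in WT. Every DKO library lay below every WT library, although the lowest WT value was close. The log2 fold change was -0.97 ± 0.34 (adjusted p = 0.015), but under total counts alone it was 0.020, with adjusted p = 0.96, so its direction rests on the scaling. With no filter on low counts it was at -0.88 (adjusted p = 0.056). Ngfr, the p75 neurotrophin receptor, had 1.26, 1.0, 1.62 and 1.40 CPM in DKO, against 4.08, 3.81, 4.55 and 1.83 CPM in WT. The groups did not overlap, and the change was -1.43 ± 0.31 (adjusted p = 0.00031). Reln encodes reelin, a large secreted glycoprotein, and had 10.6, 29.2, 12.9 and 6.72 CPM in DKO, against 36.8, 38.9, 45.0 and 22.5 CPM in WT. Here replicate 2 of DKO was high and overlapped the lowest WT library, and the change was -1.27 ± 0.38 (adjusted p = 0.0059). Under total counts alone Ngfr was at -0.45 and Reln at -0.30, and neither passed (adjusted p = 0.21 for Ngfr and 0.50 for Reln).

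Hhip, a membrane protein that binds hedgehog ligands and dampens their signal, was the member that fell most. It had 0.114, 0.0590, 0 and 0.10 CPM in DKO, against 1.93, 1.96, 2.75 and 0.731 CPM in WT, from 5 counts over the 4 DKO libraries and 66 over the 4 WT libraries. All DKO libraries were below all WT libraries. The log2 fold change was -4.58 ± 0.79 (adjusted p = 2.1e-05) and it passed under total counts as well, at -3.66. With so few counts in DKO, its size is loosely bounded (approximate 95% interval -6.24 to -2.91).

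Among the activated markers, Lox and Loxl2, which oxidise lysines so that collagen and elastin can be cross-linked, rose most. Lox had 7.43, 8.78, 10.3 and 12.9 CPM in DKO, against 0.454, 0.231, 0.529 and 0.122 CPM in WT, a log2 fold change of 4.82 ± 0.52 (adjusted p = 2.2e-08). Loxl2 had 18.2, 20.9, 18.6 and 18.3 CPM in DKO, against 1.36, 2.19, 1.91 and 1.46 CPM in WT, a change of 3.45 ± 0.36 (adjusted p = 1.4e-08). The DKO libraries were tight for Loxl2 and more spread for Lox, and for both every DKO library was above every WT library. Vim, the intermediate filament of mesenchymal cells, had 126, 141, 143 and 119 CPM in DKO, against 19.9, 15.9, 23.1 and 14.6 CPM in WT. On the log2 scale it rose by 2.84 ± 0.29 (adjusted p = 1.5e-08), again with no overlap. Acta2, the smooth muscle actin of contractile myofibroblasts, had 17, 8.37, 20.2 and 30.7 CPM in DKO, against 2.50, 2.19, 4.87 and 2.92 CPM in WT. Its DKO libraries were the least even of these 4 genes, with replicate 2 lowest and replicate 4 highest, yet all lay above WT and the change was 2.60 ± 0.59 (adjusted p = 0.00055).

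Des, a muscle-type intermediate filament, and Tagln, an actin-binding protein of smooth muscle, did not pass the test. Des had 6.36 to 7.90 CPM in DKO, against 4.65 to 6.81 CPM in WT (log2 fold change 0.25 ± 0.27, adjusted p = 0.42, 95% interval -0.31 to 0.81). Tagln had 0.938 to 1.03 CPM in DKO, against 0.231 to 0.853 CPM in WT (log2 fold change 1.08 ± 0.60, adjusted p = 0.12, 95% interval -0.19 to 2.34). The Tagln groups did not overlap, but the WT libraries held 16 counts in all. Both passed under total counts alone, Des at 1.23 and Tagln at 2.07, and Tagln also with only DKO and WT in the fit (1.06, adjusted p = 0.031). Of the 1988 exon bases of Tagln, 62.4% lie opposite exons of the antisense gene Gm48529, and whether counting used strand is not stated, so reads of the 2 genes may be mixed.

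**Figure D1:**
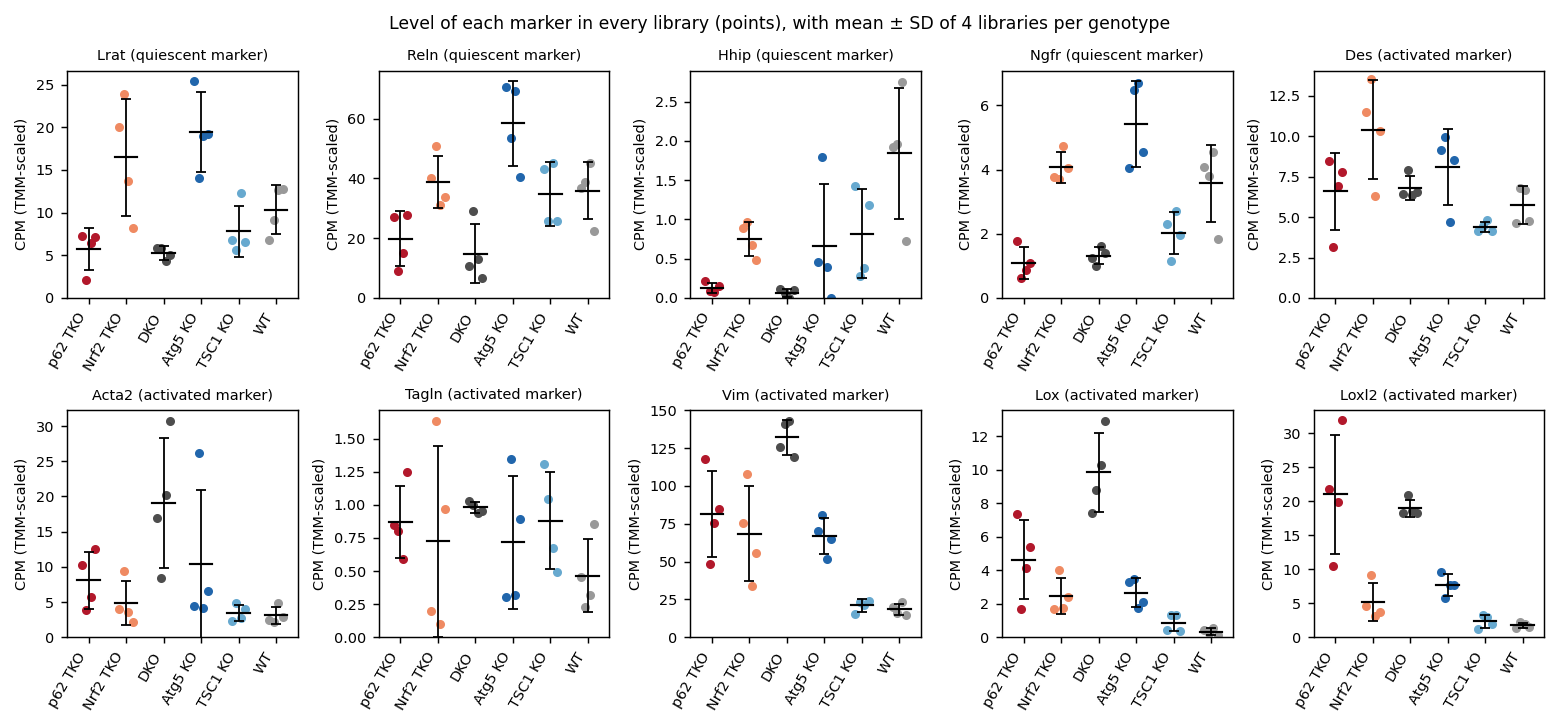
CPM of each marker (vertical axes, linear, starting at 0) in every library, by genotype from p62 TKO to WT; points are libraries in replicate order, and bars show the mean ± SD of 4, with error bars cut at 0. Lox, Loxl2 and Vim were well above WT in DKO livers, Hhip was near 0 in p62 TKO and DKO livers, and the single high Acta2 point in Atg5 KO is replicate 2 at 26.1 CPM.

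**Figure D2:**
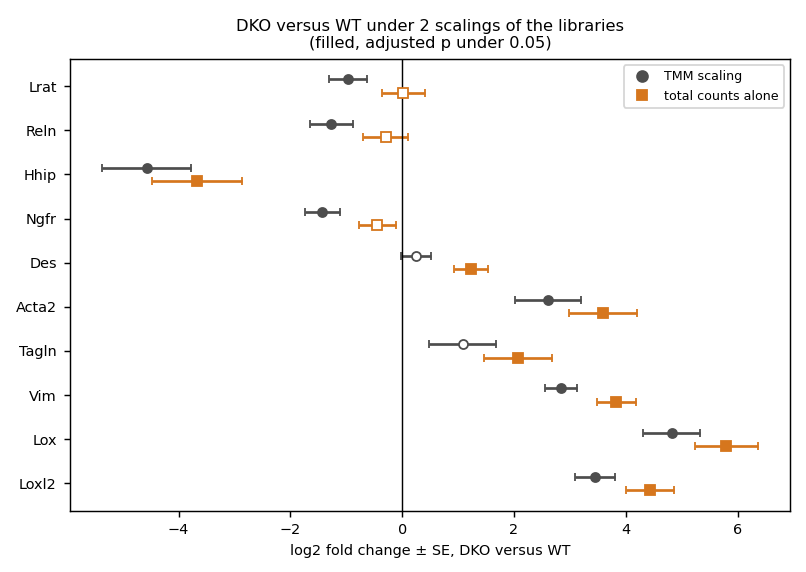
Log2 fold change ± SE of each marker in DKO versus WT livers, with libraries scaled by TMM (circles) or by total counts alone (squares); filled symbols have adjusted p under 0.05. The squares lie to the right for every marker, and Lrat is at 0.020 under total counts.

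The 250 bases upstream of the RefSeq start were searched in 7 of the 10 members, all those in the promoter table used, for letters bound by factors linked to stellate cell activation or to the deleted genes. The TEAD letters GGAATG, the partner site of the coactivator YAP, occurred once each in Lrat and Acta2, 1 marker of each state, and in 12.6% of 32536 promoters searched the same way on both strands. No match was found in the 7 to a CArG box, the site of SRF (1.48% of promoters), to the AP-1 letters TGANTCA (6.73%), to the antioxidant response letters TGACNNNGC (10.2%) or to the GLI letters TGGGTGGTC (0.218%). Of the 250 bases searched in each gene, all 250 in Vim, 217 in Acta2 and 37 in Ngfr lie in annotated exons. For these genes the search therefore read exon sequence in part or in whole. A match is a description of letters, not a site. The upstream sequences of Lrat, the retinol store enzyme, and Hhip, the member that fell most in DKO livers, and 30 bases of Acta2 are shown 5′ to 3′ on the minus strand from RefSeq on GRCm38.p6, with the hexamer in capitals on whichever strand it reads. They lie at chr3:82903975-82904224, chr8:80058009-80058258 and chr19:34255502-34255531. The Acta2 stretch is upstream of the RefSeq start but inside the gene as annotated by GENCODE, which begins at chr19:34255590 on the minus strand.
Lrat: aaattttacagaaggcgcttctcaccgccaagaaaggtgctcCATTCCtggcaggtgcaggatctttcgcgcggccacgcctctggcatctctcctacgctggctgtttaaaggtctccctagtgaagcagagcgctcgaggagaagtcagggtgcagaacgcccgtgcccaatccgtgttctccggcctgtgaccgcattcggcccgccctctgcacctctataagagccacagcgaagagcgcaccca
Hhip: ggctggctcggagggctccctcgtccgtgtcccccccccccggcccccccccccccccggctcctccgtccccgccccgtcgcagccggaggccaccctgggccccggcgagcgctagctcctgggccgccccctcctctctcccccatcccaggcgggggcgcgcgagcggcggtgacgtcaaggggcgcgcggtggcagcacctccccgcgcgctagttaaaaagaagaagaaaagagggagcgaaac
Acta2: gagcagaacagaGGAATGcagtggaagaga
In Lrat the hexamer spans positions -208 to -203 from the start, and in Acta2 positions -146 to -141. The window of Hhip holds none of the searched letters. Lrat was lower and Acta2 higher in DKO than in WT livers.

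Per kilobase of exon, which allows levels to be set side by side between genes, Vim had the highest mean of the members in both groups, 27.9 CPM per kb in DKO and 3.87 in WT livers. Below it the order differed. In DKO livers Acta2 (8.68), Loxl2 (3.52), Lox (2.06) and Des (1.81) came next, ahead of Lrat (0.987). In WT livers Lrat (1.93), Des (1.52), Reln (1.51), Acta2 (1.42) and Ngfr (1.04) followed Vim, all in mean CPM per kb, and Lox was lowest at 0.0699.

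Because scaling a library moves all its genes alike, the mean log2 CPM of the 6 activated markers minus that of the 4 quiescent markers within a library is nearly free of it. The difference was 1.66, 1.76, 1.77 and 1.92 in the p62 TKO libraries, -0.68, 0.22, -0.97 and -0.070 in the Nrf2 TKO and 2.36, 2.12, 2.64 and 2.81 in the DKO libraries. It was -0.46, -0.081, -0.92 and 0.38 in Atg5 KO and -1.28, 0.34, -0.74 and -0.84 in TSC1 KO, against -1.59, -1.80, -1.72 and -1.14 in WT. All p62 TKO and DKO libraries lay above every library of the other 4 genotypes, and all WT libraries lay below every Nrf2 TKO and Atg5 KO library, while replicate 1 of TSC1 KO lay within the WT range. This is a description of the 10 members and carries no test.

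**Figure D3:**
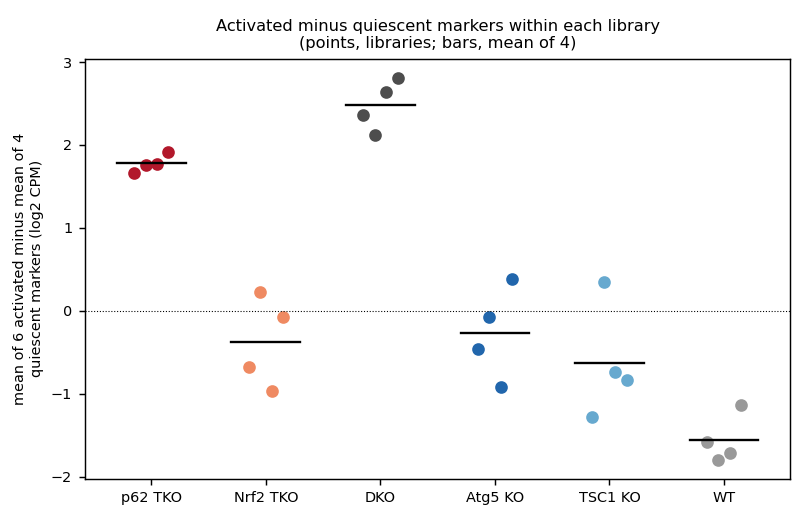
Mean log2 CPM of the 6 activated markers minus that of the 4 quiescent markers (vertical axis) in each library, by genotype from p62 TKO to WT; horizontal bars are means of 4 libraries. The p62 TKO libraries lie between 1.66 and 1.92, DKO libraries between 2.12 and 2.81 and WT libraries between -1.80 and -1.14.

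Removing Nrf2 from DKO livers went with more of all 4 quiescent markers and less of 4 activated ones. Of the 10 members, 9 passed in Nrf2 TKO versus DKO, 5 higher and 4 lower, where 55.9% of all genes passed (26.7% higher and 29.2% lower). Libraries did not overlap for 7 members, as for 45.9% of all genes. The median log2 fold change was 1.63 over the quiescent and -1.41 over the activated markers, against -0.048 over all genes. With total counts 3 were higher and 4 lower.

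The Nrf2 TKO libraries had 20, 23.9, 13.8 and 8.21 CPM of Lrat, all above the DKO libraries listed before, and the log2 fold change was 1.64 ± 0.34 (adjusted p = 0.00026). For Ngfr they had 3.76, 3.72, 4.75 and 4.06 CPM, near the WT values and clear of DKO, and the change was 1.61 ± 0.31 (adjusted p = 0.00012). Hhip had 0.891, 0.966, 0.678 and 0.483 CPM in Nrf2 TKO, above every DKO library, a log2 change of 3.30 ± 0.84 (adjusted p = 0.0019). Reln, with 40.1, 50.7, 31.1 and 33.7 CPM in Nrf2 TKO, changed by 1.39 ± 0.38 on the log2 scale (adjusted p = 0.0040). All 4 Nrf2 TKO libraries exceeded the highest DKO library for Reln, but under total counts alone the change was 0.76 and did not pass (adjusted p = 0.10).

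Loxl2 had 4.55, 9.22, 3.10 and 3.77 CPM in Nrf2 TKO livers, all below every DKO library, and the change was -1.86 ± 0.31 (adjusted p = 2.5e-05). Lox had 1.68, 4.01, 1.74 and 2.41 CPM in Nrf2 TKO and fell by 3.94-fold relative to DKO, a log2 change of -1.98 ± 0.39 (adjusted p = 0.00018). For both genes the replicate 2 library was the highest of the Nrf2 TKO group and still below every DKO library. Vim, at 75.7, 108, 34.1 and 55.9 CPM in Nrf2 TKO, changed by -0.95 ± 0.27 (adjusted p = 0.0044). Acta2, at 4.06, 9.37, 3.58 and 2.22 CPM in Nrf2 TKO, changed by -1.97 ± 0.56 (adjusted p = 0.0051), with replicate 2 of Nrf2 TKO overlapping the lowest DKO library. These 4 calls were kept under all 14 alternatives of scaling, filter, model and left-out library.

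Des went the other way from the 4 activated markers that fell, with 6.30 to 13.5 CPM in Nrf2 TKO and 6.36 to 7.90 CPM in DKO livers. Its log2 fold change was 0.62 ± 0.26 (adjusted p = 0.047), and under total counts alone it turned to -0.021 (adjusted p = 0.95). The call was lost without any 1 of DKO replicates 1, 3 and 4 and Nrf2 TKO replicates 1 and 2 (log2 0.46 to 0.63, adjusted p 0.064 to 0.16) and with no filter (0.52, adjusted p = 0.14). Tagln had 0.0969 to 1.64 CPM in Nrf2 TKO, a spread that covers the whole DKO group, and did not pass (log2 fold change -0.38 ± 0.54, adjusted p = 0.58).

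Set against WT, Nrf2 TKO livers had 4 activated markers higher, where 39.5% of all genes passed (22.4% higher and 17.1% lower). No quiescent marker passed by edgeR or DESeq2, and 0 of 4 had an unadjusted p under 0.05. Vim was at 1.90 ± 0.28 (adjusted p = 2.5e-05), Lox at 2.84 ± 0.54 (adjusted p = 0.00032) and Loxl2 at 1.58 ± 0.37 (adjusted p = 0.0017). Des was at 0.86 ± 0.27 (adjusted p = 0.014), and without replicate 2 of Nrf2 TKO at 0.71 (adjusted p = 0.062). For the quiescent markers the 95% intervals of the difference were -0.025 to 1.37 for Lrat, -0.67 to 0.91 for Reln, -2.58 to 0.028 for Hhip and -0.45 to 0.82 for Ngfr. Under total counts Lrat passed at 1.04 (adjusted p = 0.029), and without replicate 4 of Nrf2 TKO, its lowest for Lrat, at 0.88 (adjusted p = 0.033). The comparisons with DKO and with WT share the Nrf2 TKO libraries.

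**Figure D4:**
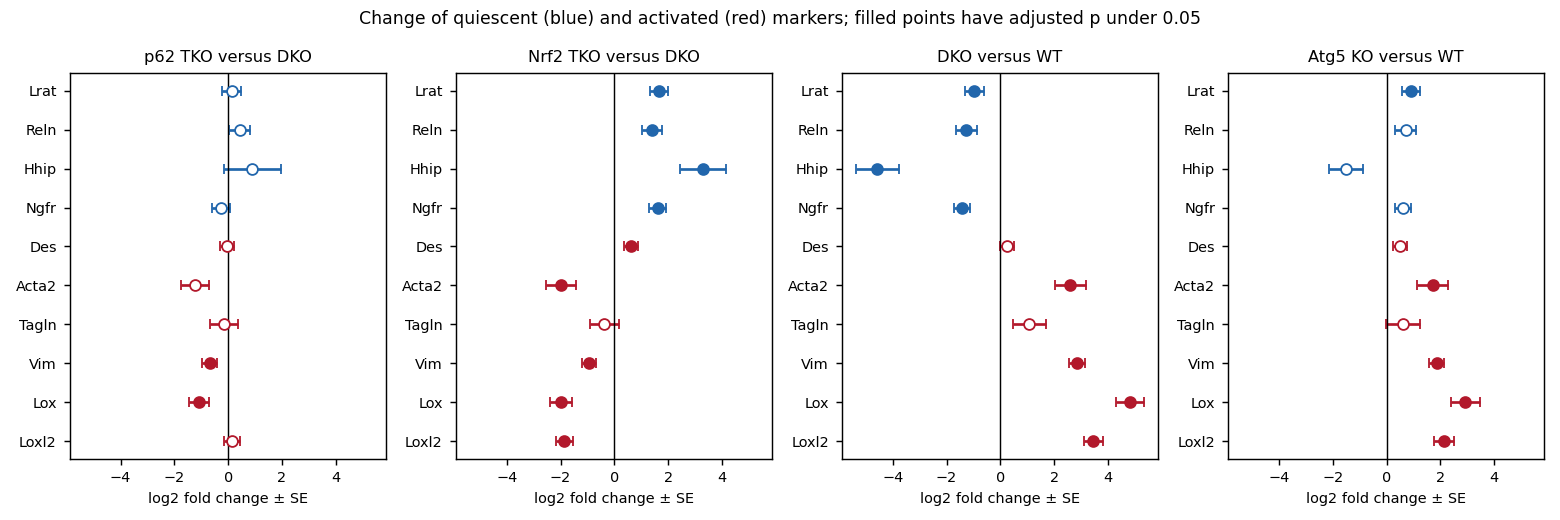
Log2 fold change ± SE (horizontal axes) of the 4 quiescent markers (blue) and 6 activated markers (red) in 4 comparisons; filled points have adjusted p under 0.05. The quiescent markers lie right of 0 and Acta2, Vim, Lox and Loxl2 left of it in Nrf2 TKO versus DKO, the reverse of DKO versus WT, with which it shares the DKO libraries.

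Few of the markers passed the test when p62 was removed from DKO livers. Only Vim and Lox passed in p62 TKO versus DKO, both lower, which makes 2 of 10 where 43.8% of all genes passed (22.3% higher and 21.5% lower). Vim had 118, 48.7, 75.4 and 84.7 CPM in p62 TKO livers, all below the DKO libraries, a log2 fold change of -0.69 ± 0.26 (adjusted p = 0.037). Lox had 7.36, 1.70, 4.12 and 5.37 CPM in p62 TKO livers, the highest of which was just under the lowest DKO library, a change of -1.08 ± 0.37 (adjusted p = 0.022). Both calls were lost when single libraries were left out. Without p62 TKO replicate 2 Vim was at -0.49 (adjusted p = 0.14) and Lox at -0.78 (adjusted p = 0.086). Vim was also lost without p62 TKO replicate 3 or 4 or DKO replicate 2 or 3, with a fold change close to that of the full fit (log2 -0.71 to -0.66, adjusted p up to 0.086), and Lox without p62 TKO replicate 3 (-1.02, adjusted p = 0.059) or DKO replicate 4 (-0.93, adjusted p = 0.072). Vim was lost with no filter as well (-0.76, adjusted p = 0.074).

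Loxl2 had 21.8, 10.6, 19.9 and 31.9 CPM in p62 TKO livers, straddling the DKO values, and its change of 0.15 ± 0.29 did not pass (adjusted p = 0.71, 95% interval -0.46 to 0.76). Acta2, at 10.2, 3.84, 5.66 and 12.5 CPM in p62 TKO, was at -1.24 ± 0.54 (adjusted p = 0.067), and it passed without DKO replicate 2 (-1.49, adjusted p = 0.032) or p62 TKO replicate 4 (-1.53, adjusted p = 0.048). Acta2 passed under 5 of 14 alternatives in all, DESeq2 and total counts alone among them. No quiescent marker passed by edgeR or DESeq2, and 0 of 4 had an unadjusted p under 0.05. Lrat had 2.06 to 7.22 CPM in p62 TKO and 4.27 to 5.90 CPM in DKO livers, with a 95% interval of the difference of -0.59 to 0.84. Those of Reln (-0.38 to 1.22), Hhip (-1.34 to 3.12) and Ngfr (-0.95 to 0.43) also spanned 0. Scaled by total counts, Loxl2 turned to -0.29 and Lrat to -0.31, neither called. Reln passed without DKO replicate 2, at 0.97 (adjusted p = 0.028).

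The 2 TKO genotypes were tested against each other. In p62 TKO versus Nrf2 TKO livers 4 members passed, 1 higher and 3 lower, where 17.5% of all genes passed (10.4% higher and 7.11% lower). Libraries did not overlap for 5 members, as for 18.4% of all genes; these were the 4 called and Reln, at -0.97 ± 0.38 (adjusted p = 0.082; DESeq2 -0.96, adjusted p = 0.047). Loxl2 was higher in p62 TKO livers by 2.01 ± 0.31 (adjusted p = 0.00015), with every p62 TKO library above every Nrf2 TKO library. Lrat was lower in p62 TKO livers, with 7.22, 2.06, 6.47 and 7.09 CPM in p62 TKO, against 20, 23.9, 13.8 and 8.21 CPM in Nrf2 TKO (-1.52 ± 0.34, adjusted p = 0.0035). Ngfr was lower too, with 1.77, 0.626, 0.883 and 1.09 CPM in p62 TKO, against 3.76, 3.72, 4.75 and 4.06 CPM in Nrf2 TKO (-1.87 ± 0.32, adjusted p = 0.00039). No library of one group reached the other for either gene. Hhip had 0.0736 to 0.212 CPM in p62 TKO and 0.483 to 0.966 CPM in Nrf2 TKO livers (-2.41 ± 0.82, adjusted p = 0.043), a call lost without any 1 of the 4 p62 TKO libraries or Nrf2 TKO replicates 1, 2 and 3 (adjusted p 0.058 to 0.11), or with total counts (-2.22, adjusted p = 0.050) or no filter (-2.38, adjusted p = 0.057). Lox, not called at 0.90 ± 0.40, passed without p62 TKO replicate 2 (1.14, adjusted p = 0.038) or Nrf2 TKO replicate 2 (1.25, adjusted p = 0.045), and Des passed without Nrf2 TKO replicate 3 (-0.86, adjusted p = 0.027).

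Against WT, p62 TKO livers had 3 members higher and 3 lower, where 50.9% of all genes passed (28.0% higher and 22.9% lower), and under total counts alone 5 higher and 2 lower. Loxl2 was at 3.59 ± 0.36 (adjusted p = 5.7e-08), Lox at 3.74 ± 0.52 (adjusted p = 4.5e-06) and Vim at 2.15 ± 0.28 (adjusted p = 2.7e-06). Hhip was at -3.68 ± 0.77 (adjusted p = 0.00037), from 7 counts over the 4 p62 TKO libraries and 66 over the 4 WT libraries, and Ngfr at -1.69 ± 0.33 (adjusted p = 0.00018). Lrat was at -0.85 ± 0.34 (adjusted p = 0.044), a call lost without WT replicate 3 or 4 or p62 TKO replicate 2 or 3 (log2 -0.91 to -0.62, adjusted p 0.057 to 0.12). The scaling moved Lrat further, to -0.29 with total counts (adjusted p = 0.52), and its call was also lost with no filter (-0.82, adjusted p = 0.11) and with only the groups compared in the fit (-0.82, adjusted p = 0.081). Reln, not called at -0.85 ± 0.38 (adjusted p = 0.068), passed by DESeq2 (-0.85, adjusted p = 0.042), without WT replicate 4 (-1.0, adjusted p = 0.046) or p62 TKO replicate 4 (-1.06, adjusted p = 0.045). Acta2, not called at 1.36 ± 0.59 (adjusted p = 0.060), passed by DESeq2 (1.37, adjusted p = 0.024), with only the groups compared (1.39, adjusted p = 0.015), with total counts (1.91, adjusted p = 0.0095) and without p62 TKO replicate 2 (1.55, adjusted p = 0.043).

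Loss of Atg5 alone went with more Vim, Lox and Loxl2. Of the 10 members 5 were higher and none lower in Atg5 KO versus WT, where 29.9% of all genes passed (18.6% higher and 11.3% lower). Vim had 70.0, 80.6, 51.9 and 65.0 CPM in Atg5 KO livers, above every WT library (1.86 ± 0.28, adjusted p = 4.6e-05). Lox had 3.28, 3.50, 1.75 and 2.11 CPM in Atg5 KO (2.93 ± 0.54, adjusted p = 0.00031), and Loxl2 had 9.61, 5.75, 7.64 and 7.70 CPM in Atg5 KO (2.14 ± 0.36, adjusted p = 0.00012), both clear of WT. These 3 calls were kept under all 14 alternatives.

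Acta2 had 4.42, 26.1, 4.22 and 6.57 CPM in Atg5 KO livers, and replicate 2 alone lay far above WT. The change was 1.71 ± 0.59 (adjusted p = 0.034) with that library and 0.68 (adjusted p = 0.31) without it, and the call was also lost without WT replicate 1, 2 or 4 (adjusted p up to 0.089), with no filter (1.73, adjusted p = 0.095) and with only the groups compared (1.73, adjusted p = 0.082). In that same library the summed hepatocyte genes stood at 134788 CPM, against 61778 to 75251 CPM in the other 3 Atg5 KO libraries; what part this has in the Acta2 value was not tested. Lrat had 25.5, 14, 19 and 19.2 CPM in Atg5 KO, each above every WT library (0.91 ± 0.33, adjusted p = 0.042), a call lost without any 1 of WT replicates 1 and 2 and Atg5 KO replicates 1, 3 and 4 (log2 0.75 to 0.92, adjusted p 0.068 to 0.13) and with no filter (0.93, adjusted p = 0.089). Hhip had 0.457, 1.80, 0.398 and 0 CPM in Atg5 KO, and its change of -1.50 ± 0.63 did not pass (adjusted p = 0.073). Without replicate 2, the one Atg5 KO library inside the WT range, Hhip was at -2.65 (adjusted p = 0.0031). Reln, at 40.4 to 70.4 CPM in Atg5 KO, and Ngfr, at 4.04 to 6.69 CPM, were not called (0.70 ± 0.37, adjusted p = 0.17 for Reln; 0.60 ± 0.30, adjusted p = 0.13 for Ngfr), and both passed under total counts alone, which called 8 members, all higher.

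Loss of TSC1 alone left no member past the test by edgeR or by DESeq2, where 16.4% of all genes passed by edgeR (8.79% higher and 7.60% lower); 2 members, Ngfr and Lox, had an unadjusted p under 0.05. Lox had 0.437, 1.33, 1.35 and 0.394 CPM in TSC1 KO livers, overlapping WT at the low end (1.36 ± 0.61, adjusted p = 0.13). Ngfr had 2.30, 1.14, 2.71 and 1.97 CPM in TSC1 KO (-0.82 ± 0.32, adjusted p = 0.078), and passed without WT replicate 4 (-0.98, adjusted p = 0.033). The 95% intervals were narrower for Vim (-0.39 to 0.79), Des (-0.97 to 0.21) and Loxl2 (-0.38 to 1.27) than for Acta2 (-1.16 to 1.46), Tagln (-0.42 to 2.26) and Hhip (-2.50 to 0.12). None of these intervals shows the absence of a change.

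Whether the double loss differed from the sum of the single losses was tested with an interaction term over DKO, Atg5 KO, TSC1 KO and WT livers. Of the quiescent markers 3 passed, all lower, where 34.8% of all genes did (15.5% higher and 19.3% lower). With all genotypes in the fit no activated marker passed by edgeR or DESeq2, and 0 of 6 had an unadjusted p under 0.05. The interaction was -1.48 ± 0.48 for Lrat (adjusted p = 0.019), -1.94 ± 0.54 for Reln (adjusted p = 0.0078) and -1.21 ± 0.44 for Ngfr (adjusted p = 0.035), so each was lower in DKO livers than the single losses add up to. For Hhip it was -1.88 ± 1.05 and did not pass (adjusted p = 0.17). Ngfr was lost without any 1 of Atg5 KO replicates 2 and 3, TSC1 KO replicates 1 and 3 and DKO replicate 2 (log2 -1.20 to -1.09, adjusted p 0.051 to 0.073). Under total counts alone Lrat (-1.01, adjusted p = 0.13) and Ngfr (-0.69, adjusted p = 0.23) did not pass, Reln did (-1.44) and Vim did on the higher side (1.29), a split of 1 higher and 1 lower. For the activated markers under TMM, Vim was at 0.79 ± 0.39 (adjusted p = 0.12) and Loxl2 at 0.86 ± 0.50 (adjusted p = 0.19), both short of the threshold; with only the 4 genotypes compared in the fit Vim passed (0.72, adjusted p = 0.023). With no filter on low counts Lrat (-1.43, adjusted p = 0.056) and Ngfr (-1.15, adjusted p = 0.095) did not pass.

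DKO livers were also set against each single loss. Against Atg5 KO, 3 members were higher and 4 lower, where 56.5% of all genes passed (29.2% higher and 27.3% lower). All 4 quiescent markers were lower, with Ngfr at -2.03 ± 0.31 (adjusted p = 6.2e-06), Reln at -1.98 ± 0.39 (adjusted p = 0.00018), Lrat at -1.88 ± 0.34 (adjusted p = 5.5e-05) and Hhip at -3.07 ± 0.85 (adjusted p = 0.0037). For Ngfr, Reln and Lrat every DKO library was below every Atg5 KO library, and the calls were kept under all 14 alternatives, total counts included. Without Atg5 KO replicate 2, Hhip was at -1.99 (adjusted p = 0.055) and Acta2 passed at 1.85 (adjusted p = 0.0023), against 0.89 ± 0.53 (adjusted p = 0.16) with it and 1.61 (adjusted p = 0.013) with total counts. Vim (0.98 ± 0.27, adjusted p = 0.0033), Lox (1.89 ± 0.39, adjusted p = 0.00025) and Loxl2 (1.3 ± 0.30, adjusted p = 0.00078) were higher in DKO livers.

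Against TSC1 KO, 5 members were higher and 2 lower in DKO livers, where 66.7% of all genes passed (36.6% higher and 30.0% lower), and 5 and 1 under total counts alone. The higher ones were Lox (3.46 ± 0.44, adjusted p = 4.1e-07), Loxl2 (3.0 ± 0.34, adjusted p = 6.5e-08), Vim (2.65 ± 0.28, adjusted p = 4.4e-08), Acta2 (2.45 ± 0.58, adjusted p = 0.00086) and Des (0.63 ± 0.27, adjusted p = 0.044). The call of Des was lost without any 1 of the 8 libraries, with the fold change at 0.53 to 0.65 on the log2 scale (adjusted p 0.057 to 0.12). Hhip was lower, at -3.39 ± 0.85 (adjusted p = 0.0012), and so was Reln, at -1.23 ± 0.38 (adjusted p = 0.0076). Under total counts alone Reln was at -0.37 and not called. Lrat, at -0.57 ± 0.34 (adjusted p = 0.15), and Ngfr, at -0.61 ± 0.32 (adjusted p = 0.097), were not called and turned to 0.29 for Lrat and 0.25 for Ngfr with total counts, though Lrat passed with only the groups compared in the fit (-0.62, adjusted p = 0.039) and Ngfr without TSC1 KO replicate 2 (-0.86, adjusted p = 0.023).

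Ordered by mean level, Lrat and Reln ran from DKO (lowest) through p62 TKO, TSC1 KO, WT and Nrf2 TKO to Atg5 KO (highest), and Ngfr likewise but with p62 TKO below DKO. Lrat spanned 3.68-fold between the highest and lowest genotype mean, Reln 3.93-fold, Ngfr 4.98-fold and Hhip, highest in WT, 27.0-fold. For these genes and for Des, Acta2 and Tagln, libraries of every 2 neighbouring genotypes overlapped. Vim and Lox were lowest in WT, then TSC1 KO, and highest in DKO, with p62 TKO next below DKO, while Loxl2 was highest in p62 TKO. Libraries did not overlap between p62 TKO and DKO for Vim and Lox, between Atg5 KO and TSC1 KO for Vim, between Nrf2 TKO and TSC1 KO for Lox, or between DKO and Atg5 KO for Loxl2.

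Other genes known from stellate cells differed in direction. Of 19 such genes tested, 11 were higher and 3 lower in DKO than in WT livers, where 37.1% of all genes were higher and 32.3% lower. Their median log2 fold change was 1.63, against 0.080 over all genes. Colec10, a collectin of stellate cells, had 0.156 to 0.953 CPM in DKO, against 7.79 to 20.6 CPM in WT (-5.42 ± 0.51, adjusted p = 3.1e-09). Ecm1, a secreted matrix protein, and Bmp10, a ligand of endothelial receptors, were the other two that fell, named after their values were seen (-1.65 ± 0.26, adjusted p = 6.3e-06 for Ecm1; -1.71 ± 0.48, adjusted p = 0.0032 for Bmp10). Cygb, a globin of stellate cells, was at 3.0 ± 0.35 (adjusted p = 1.7e-07), the PDGF receptor Pdgfra at 2.75 ± 0.35 (adjusted p = 4.3e-07) and the pericyte regulator Rgs5 at 2.32 ± 0.29 (adjusted p = 3.6e-07). Dcn, the proteoglycan decorin, an abundant member of the list, was at 0.65 ± 0.29 (adjusted p = 0.048). Scaled by total counts, 15 were higher and 2 lower, and Bmp10 was at -0.74 and not called. In Nrf2 TKO versus DKO livers 5 were higher and 4 lower (3 and 8 with total counts). Of all genes 26.7% were higher and 29.2% lower under TMM, so the TMM counts of the list were near the background. Colec10 was at 4.27 ± 0.50 (adjusted p = 2.6e-07), Ecm1 at 1.64 ± 0.26 (adjusted p = 1.2e-05), Bmp10 at 1.96 ± 0.47 (adjusted p = 0.0012) and Rgs5 at -1.07 ± 0.28 (adjusted p = 0.0023).

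**Figure D5:**
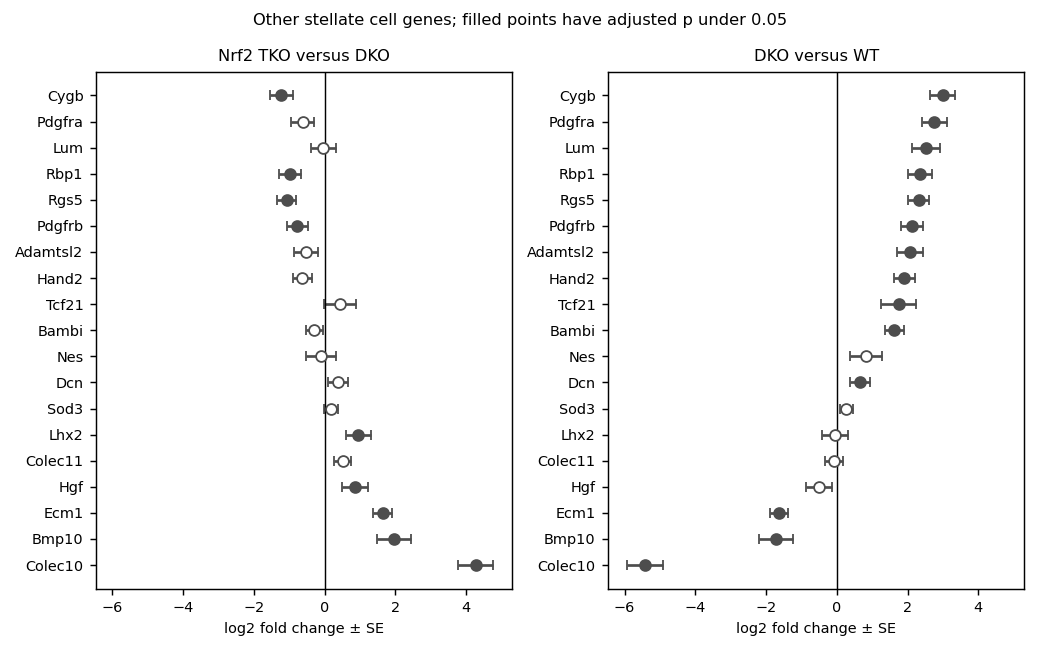
Log2 fold change ± SE of 19 other stellate cell genes in Nrf2 TKO versus DKO (left) and DKO versus WT livers (right), ordered by DKO versus WT; filled points have adjusted p under 0.05. Colec10, Bmp10 and Ecm1 are left of 0 in DKO versus WT and right of 0 in Nrf2 TKO versus DKO, 2 comparisons that share the DKO libraries.

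Partners of the quiescent markers were read from lists of their pathways. Of 18 genes of vitamin A handling, 6 were higher and 7 lower in DKO than in WT livers (median -0.34). That was near the 37.1% of all genes that were higher and 32.3% that were lower. Rdh10, which oxidises retinol (-1.79 ± 0.15, adjusted p = 3.2e-10), and Rbp4, the plasma retinol carrier made by hepatocytes (-1.83 ± 0.18, adjusted p = 4.5e-09), were both among the 7 lower. None of the 6 higher is named here. Around Hhip, 8 of 13 hedgehog genes were higher and 2 lower (median 1.99). Smo, the signal transducer, was at 2.05 ± 0.27 (adjusted p = 4.9e-07), the co-receptor Cdon at 2.89 ± 0.34 (adjusted p = 8.8e-08), and the ligand receptor Ptch1 at -0.92 ± 0.16 (adjusted p = 1.9e-05). Around Reln, 6 of 9 genes were higher and 2 lower (median 2.53), with the reelin receptors Vldlr at 5.52 ± 0.57 (adjusted p = 2.0e-08) and Lrp8 at 9.81 ± 0.92 (adjusted p = 9.7e-09) and their adaptor Dab1 at 5.53 ± 0.44 (adjusted p = 2.4e-10). Around Ngfr, 7 of 9 neurotrophin genes were higher and 1 lower (median 2.74), with the receptor Ntrk2 at 4.73 ± 0.43 (adjusted p = 2.3e-09) and the Ngfr co-receptor Sort1 at 1.97 ± 0.16 (adjusted p = 4.3e-10). In Nrf2 TKO versus DKO livers 8 hedgehog genes were lower and 2 higher, 6 reelin genes lower and none higher, and 4 neurotrophin genes lower and 1 higher, where 26.7% of all genes were higher and 29.2% lower. Scaled by total counts, in DKO versus WT 10 vitamin A genes were higher and 6 lower, with their median turned to 0.65, and 10 hedgehog, 8 reelin and 9 neurotrophin genes were higher with none lower; Ptch1 turned to 0.068 (adjusted p = 0.72). In Nrf2 TKO versus DKO that scaling gave 1 hedgehog gene higher and 9 lower, 9 reelin genes lower, and 7 neurotrophin genes lower.

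Partners of the activated markers mostly rose in DKO livers. Of 22 lysyl oxidase relatives and matrix substrates, 18 were higher and 2 lower than in WT (median 2.31), where 37.1% of all genes were higher and 32.3% lower. Col1a1 and Col1a2, the chains of type I collagen, were at 3.80 ± 0.36 (adjusted p = 7.4e-09) and 3.46 ± 0.35 (adjusted p = 1.6e-08), the matricellular protein Sparc at 2.93 ± 0.28 (adjusted p = 3.9e-09), and fibronectin, Fn1, at -1.17 ± 0.22 (adjusted p = 6.1e-05). The family members Loxl1 (3.43 ± 0.50, adjusted p = 2.7e-06) and Loxl3 (1.73 ± 0.36, adjusted p = 0.00018) rose and Loxl4 did not pass (0.020 ± 0.44, adjusted p = 0.97); these 3 were named for their kinship after their values were seen. Of 26 contractile genes and targets of the factor SRF, 17 were higher and 1 lower (median 0.80), with the actin cross-linker Flna at 3.53 ± 0.24 (adjusted p = 2.0e-11), Tagln2 at 3.75 ± 0.26 (adjusted p = 3.0e-11) and Actb at 0.094 ± 0.16 (adjusted p = 0.61). Of 10 intermediate filament genes and linkers, 7 were higher and none lower, with Synm, which co-assembles with desmin and vimentin, at 3.22 ± 0.36 (adjusted p = 3.6e-08). Of 19 profibrotic signals, 17 were higher and 2 lower, with Tgfb2 at 6.78 ± 0.41 (adjusted p = 6.7e-12) and Pdgfb at 4.07 ± 0.26 (adjusted p = 1.0e-11). In Nrf2 TKO versus DKO livers the matrix list had 1 higher and 7 lower, the contractile list none higher and 14 lower, and the profibrotic list 2 higher and 15 lower (1 and 16, none and 23, and 1 and 17 with total counts). Of all genes 26.7% were higher and 29.2% lower under TMM, so the 7 lower of 22 matrix genes were near the background. Scaled by total counts, DKO versus WT had 21 matrix, 23 contractile, 10 intermediate filament and 18 profibrotic genes higher and none lower, with Fn1 at -0.16 (adjusted p = 0.45), and both Actb and Loxl4 passed, at 1.08 for Actb and 1.01 for Loxl4.

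Markers of other cells were read in the same comparison, where 37.1% of all genes were higher and 32.3% lower, and what part they have in the members' changes was not tested. All 16 bile duct genes were higher in DKO than in WT livers, summing to 7427 to 10908 CPM in DKO and 86.4 to 126 CPM in WT. All 16 hepatocyte genes were lower, summing to 16122 to 22809 CPM in DKO and 116959.7 to 130576 CPM in WT. Of 17 macrophage genes, 11 were higher and 5 lower, summing to 528 to 942 CPM in DKO and 261 to 428 CPM in WT. Of 17 endothelial genes, 8 were higher and 3 lower, summing to 317 to 347 CPM in DKO and 186 to 341 CPM in WT, and of 14 lymphocyte genes 10 were higher and none lower. For the cells that share Acta2 and Tagln, 3 of 8 vascular smooth muscle genes tested were higher, close to the 37.1% of all genes, and 1 lower, summing to 144 to 179.6 CPM in DKO and 123 to 138 CPM in WT. Of 14 portal fibroblast and mesothelial genes, 7 were higher and 1 lower, summing to 176 to 276 CPM in DKO and 18 to 33.4 CPM in WT, with Thy1 at 5.43 ± 0.53 (adjusted p = 8.3e-09). For the cells that share Reln and Ngfr, 4 of 5 glial and nerve genes were higher, summing to 111 to 155 CPM in DKO and 3.17 to 4.74 CPM in WT, while the glial factor Sox10 was at 0 in every WT library. Total counts in place of TMM gave 7 vascular smooth muscle and 10 portal fibroblast genes higher and none lower, 12 macrophage genes higher and 4 lower, and 12 endothelial genes higher and 1 lower. Skeletal and cardiac muscle genes summed to 3.54 to 5.83 CPM in DKO and 2.38 to 4.02 CPM in WT, with the muscle creatine kinase Ckm at 0 in every WT library.

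In Nrf2 TKO versus DKO livers the same lists moved as well: none of 16 bile duct genes was higher and 13 were lower (1750.1 to 3112 CPM in Nrf2 TKO, 7427 to 10908 CPM in DKO), and all 16 hepatocyte genes were higher (85854 to 120720.1 CPM in Nrf2 TKO, 16122 to 22809 CPM in DKO). Of 17 macrophage genes 5 were higher and 12 lower (252 to 384 CPM in Nrf2 TKO, 528 to 942 CPM in DKO), where 26.7% of all genes were higher and 29.2% lower. In p62 TKO versus DKO livers 14 of 16 bile duct genes were lower and 15 of 16 hepatocyte genes higher, and 5 of 17 macrophage genes were higher and none lower (5 and 4 with total counts). Of all genes 22.3% were higher and 21.5% lower under TMM, so the 5 macrophage genes higher were near the background. In Atg5 KO versus WT livers 14 of 16 bile duct genes and 12 of 17 macrophage genes were higher and 5 of 16 hepatocyte genes lower (2 with total counts). Of all genes 18.6% were higher and 11.3% lower there under TMM. What part these lists have in the members' values was not tested in any of these comparisons.

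Genes whose 6 genotype means followed each member most closely were found as those with the smallest root mean square difference in centred log2 CPM, given here in parentheses. For Lrat they were Gdf2 (0.28), Mustn1 (0.32) and Npas2 (0.34), for Ngfr Npas2 (0.24), Ecm1 (0.29) and Gdf2 (0.34), for Reln Adra2b (0.18), Tnxb (0.18) and Podn (0.19) and for Hhip Lifr (0.26), Npr2 (0.29) and Gramd1c (0.31). Gdf2 and Npas2 stood on the lists of both Lrat and Ngfr. For Acta2 they were Fmnl3 (0.12), Pdlim7 (0.14) and Bcl2l11 (0.15), for Vim Rgs19 (0.14), Stambpl1 (0.14) and Sytl2 (0.15), for Lox Ankrd6 (0.12), Stc2 (0.14) and Dapp1 (0.15) and for Loxl2 Iqgap3 (0.12), Cyp4f18 (0.15) and Gltp (0.16). For Des they were Ccdc66 (0.12), Dimt1 (0.13) and Sod3 (0.15), and for Tagln Amdhd2 (0.10), Selenbp1 (0.10) and Degs1 (0.11). Members, predicted genes with Gm or Rik symbols, and genes with a low mean CPM in every genotype were left out of this search. Lrat and Ngfr lay closer to each other (0.19) than to any of these genes, and Lrat and Reln differed by 0.30.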

How the data were processed

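RNA of mouse liver was measured in 24 libraries of polyadenylated RNA, 4 per genotype; per the labels' protocols, a stranded kit was read as single reads. The authors deposited one whole-number count for each Ensembl gene and library. Trimmomatic 0.36, HISAT2 2.1.0 and HTSeq on GRCm38 are named in the submitters' processing notes; the sources used here give neither the annotation release nor the strand setting. Symbols came from GENCODE on GRCm38 for 32938 of 33019 identifiers. Libraries were grouped by the labelled genotype, and no 2 were duplicates.

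Genes were filtered with filterByExpr over the 6 groups and scaled by TMM. A mean for each genotype was fitted with glmQLFit (18 residual degrees of freedom, robust) in edgeR 4.0.16 (R 4.3.3, limma 3.58.1), and 11 comparisons were tested with glmQLFTest at an adjusted p of 0.05. CPM used TMM-scaled totals and log2 CPM a prior count of 2. The members, gene lists and tests were chosen with earlier results of these data known. All members are named; from the other lists, genes were named by lowest adjusted p (at most 4 a list) or highest CPM (at most 2) in the comparison described, unless the text says otherwise; 1 gene that this rule names is not reported here. Alternatives were DESeq2 1.42.0, its size factors, total counts alone, no filter, a replicate block, only the groups compared, and each library left out. The fit was also run on simulated counts in which a small set of well-counted genes was changed in DKO alone. That run does not check the scaling or genes with few counts. Figures and descriptions used Python 3.11.15, pandas 2.3.3, numpy 2.4.6 and matplotlib 3.10.9.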

Additional observations from a re-analysis of the deposited data

Results flagged for a closer look

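Over the 60 groups of 4 libraries (10 members in 6 genotypes), 4 held 1 library far from the other 3 by Dixon's criterion, which chance flags in about 1 of 20 groups. Lrat was low in replicate 2 of p62 TKO, at 2.06 CPM, against 6.47 to 7.22 CPM in the other 3. Acta2 was high in replicate 2 of Atg5 KO, at 26.1 CPM, against 4.22 to 6.57 CPM. The other 2 came from replicate 2 of DKO and were high by little: Des at 7.90 CPM, against 6.36 to 6.57 CPM, and Loxl2 at 20.9 CPM, against 18.2 to 18.6 CPM.

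The effect of losing both genes differed from the sum of the single losses for 3 quiescent markers by the interaction test with all genotypes in the fit. Of all genes 34.8% passed that test (15.5% higher and 19.3% lower), so 3 of 10 members was near the background. The interaction was -1.48 for Lrat (adjusted p = 0.019), -1.94 for Reln (adjusted p = 0.0078) and -1.21 for Ngfr (adjusted p = 0.035), from edgeR on the log2 scale. Lrat and Ngfr did not pass under total counts alone or with no filter on low counts, and Vim passed under total counts (1.29) and with only the 4 genotypes compared in the fit (0.72).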

How the results depend on the processing

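The choice of scaling had the most effect. Under total counts alone 2 called changes turned in sign, Lrat in DKO versus WT (0.020) and Des in Nrf2 TKO versus DKO (-0.021), 8 of the uncalled changes turned too, and 8 members were called in Atg5 KO versus WT in place of 5. With no filter on low counts, the members called numbered 3 in Atg5 KO versus WT (5), 1 for the interaction (3) and 1 in p62 TKO versus DKO (2). With only the groups compared in the fit, 1677 genes were called in p62 TKO versus Nrf2 TKO (2776 in the full fit) and 3691 in Nrf2 TKO versus WT (6262). Leaving out 1 library at a time gave 3 to 5 members in Atg5 KO versus WT, 0 to 1 in TSC1 KO versus WT, 0 to 3 in p62 TKO versus DKO, 2 to 3 for the interaction, and 8 in DKO versus WT throughout, and 1724 to 2272 genes in TSC1 KO versus WT (2598). With 10494080 to 13057467 counts a library, Hhip, Tagln and Lox rest on few counts in some groups.

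Replicate numbers are shared between genotypes, but same-numbered libraries did not deviate together (correlations of -0.28 to 0.24; in no comparison were all 4 above 0.1), and 5 of 24 libraries correlated best with their own number. With the replicate block 3 members were called in Atg5 KO versus WT, with Lrat at 0.89 (adjusted p = 0.059) and Acta2 at 1.5 (adjusted p = 0.075), and Des in DKO versus TSC1 KO and Nrf2 TKO versus DKO and Hhip in p62 TKO versus Nrf2 TKO were not called; no other member's call changed under it.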
